A study of Mus musculus with 6 samples.

Results

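The genes described here encode the submembrane skeleton: the spectrin chains Sptb, Sptan1 and Sptbn1, the ankyrins Ank1, Ank2 and Ank3, the Epb41 family genes Epb41, Epb41l2 and Epb41l3, and the adducin gene Add1. They were measured in mouse sciatic nerve at postnatal day 14 on Mouse WG-6 bead arrays. There were 3 arrays of nerves from P0 Cre Dicer mutants and 3 of control littermates, both sexes being named for every sample. In the mutants Cre is driven by the promoter of P0, the main myelin protein of Schwann cells, and the genotype label ends in "F or N", whose meaning the labels do not give. The alleles of the controls, and whether an array held 1 animal or a pool, are not stated either, so the spread between arrays may be partly technical. Members were all probes whose gene symbol in the platform annotation is 1 of the 10 names. That gave 42 of 45281 probes, for 8 of the 10 genes (19057 genes are named on the array), while no probe is named Sptan1 or Epb41 and these are not analysed here. The family was chosen by measured values of this same comparison, since it was proposed with its results known, among them the fall of Sptb. The differences and calls below are therefore a description of the members and not a test of the family.

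Spectrin is a long, flexible tetramer of alpha and beta chains that ties short actin filaments into a net under the plasma membrane. Ankyrins bind the beta chain and hold channels and adhesion molecules to the net, the Epb41 proteins strengthen the joint of spectrin with actin and bind other membrane proteins, and adducin caps the actin filament and recruits spectrin to it. In peripheral nerve these proteins line the domains where axon and Schwann cell meet. Ankyrin-G (Ank3) gathers sodium channels at the node of Ranvier, ankyrin-B (Ank2) lies in the Schwann cell loops beside it, Epb41l2 sits in the myelinating Schwann cell with the adhesion molecule Cadm4 and the scaffold Mpp6, and Epb41l3 lies next to the node. Sptb and Ank1 are best known from red cells and skeletal muscle.

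The sequences just upstream of the RefSeq starts of 3 members are shown, because Sptb fell most, Epb41l3 rose most, and Sptbn1 has 2 start windows and probes for different transcripts that moved apart. Each is the 250 bases before the start in assembly GRCm38.p6, read 5′ to 3′ along the gene, and capitals mark the letters ACAAAG, the core bound by Sox proteins, or their reverse complement CTTTGT.
Sptb, chr12:76710548-76710797, minus strand: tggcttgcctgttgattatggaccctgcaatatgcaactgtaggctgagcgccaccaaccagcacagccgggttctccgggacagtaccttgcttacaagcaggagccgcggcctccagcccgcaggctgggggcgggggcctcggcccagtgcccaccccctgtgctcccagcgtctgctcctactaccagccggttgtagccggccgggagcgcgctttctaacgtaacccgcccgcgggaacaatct
Sptbn1 upstream start, chr11:30219773-30220022, minus strand: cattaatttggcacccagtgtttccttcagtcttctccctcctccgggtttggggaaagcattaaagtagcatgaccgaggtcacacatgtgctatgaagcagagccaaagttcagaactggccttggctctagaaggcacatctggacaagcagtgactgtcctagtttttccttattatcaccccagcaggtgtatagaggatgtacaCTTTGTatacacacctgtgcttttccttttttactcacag
Sptbn1 downstream start, chr11:30198258-30198507, minus strand: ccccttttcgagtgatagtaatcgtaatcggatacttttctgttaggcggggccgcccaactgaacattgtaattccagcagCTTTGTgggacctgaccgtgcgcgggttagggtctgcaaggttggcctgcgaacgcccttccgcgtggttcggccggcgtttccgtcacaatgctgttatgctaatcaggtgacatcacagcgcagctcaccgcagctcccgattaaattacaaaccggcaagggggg
Epb41l3 most upstream start, chr17:69075427-69075676, plus strand: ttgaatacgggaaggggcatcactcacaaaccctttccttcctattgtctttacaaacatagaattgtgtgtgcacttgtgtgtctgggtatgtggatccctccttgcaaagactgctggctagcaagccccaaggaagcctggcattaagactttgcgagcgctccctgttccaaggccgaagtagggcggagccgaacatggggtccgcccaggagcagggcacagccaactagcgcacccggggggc
Both Sptbn1 windows held 1 such match, at bases 40 and 168 before the start for its 5′ end, and the Sptb window and all 3 Epb41l3 windows held 0. Among 32851 windows of this length 16.5% held the letters on either strand. The Egr letters GCGGGGGCG (2.57% of windows) were found in no window of the 8 members that had one, and GCGTGGGCG (0.536%) once, in the most upstream of 4 Ank2 windows. Ank1 and Ank3 had no window in the table. G and C made up 65.2% of the Sptb window, 46% and 55.6% of the upstream and downstream Sptbn1 windows, and 56% of the Epb41l3 window, against a median of 52.4%. Which probe reads RNA from which start is not known here.

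Values are normalized signals on the deposited log2-like scale, which runs from 7.96 to 15.91 with a median of 8.24 in each array, and every difference is mutant minus control. limma was run, without pairing of the arrays, on the 18420 brightest probes by their 6-array mean. A probe was called at a Benjamini-Hochberg adjusted p under 0.05. Correlations over these probes were 0.992 to 0.995 among the controls, 0.973 to 0.993 among the mutants and 0.912 to 0.942 between the groups. Mutant replicate 1 stood apart from the other mutants on the second principal component, which held 11.7% of the variance. The Schwann lineage marker Sox10 was at 13.94 in controls and 13.98 in mutants, and the myelin gene Mbp fell from 15.79 to 14.46. Of the 5 tested Schwann lineage markers, Mbp and S100b fell and Cdh19 rose. Over all genes, by the brightest probe of each, 22% were called higher and 17.6% lower.

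Among the 26 member probes that were bright enough to be tested, 7 were called higher and 5 lower, where 35.8% of all tested probes were called, 19.9% higher and 15.9% lower. Without mutant replicate 1 the counts were also 7 and 5. A difference of at least 1 was called for 3 member probes, against 4.5% of all tested probes. By the brightest probe of each gene, Ank3 and Epb41l3 rose, Sptb and Sptbn1 fell, and Ank1, Ank2, Epb41l2 and Add1 were not called. Over all genes 39.6% were called in this way, 22% higher and 17.6% lower. The median difference was -0.09 over these 8 genes and 0.01 over all genes. In 18 of the 26 member probes the groups did not overlap, against 52.1% of all tested probes. The remaining 16 member probes were too dim. The dimmest tested one (Ank3) averaged 8.39 and the brightest left out (Ank2) 8.34, and in 2 tested probes, 1 of Ank3 and 1 of Epb41l3, all controls lay below the lowest tested mean, so that they passed through the mutants.

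**Figure D1:**
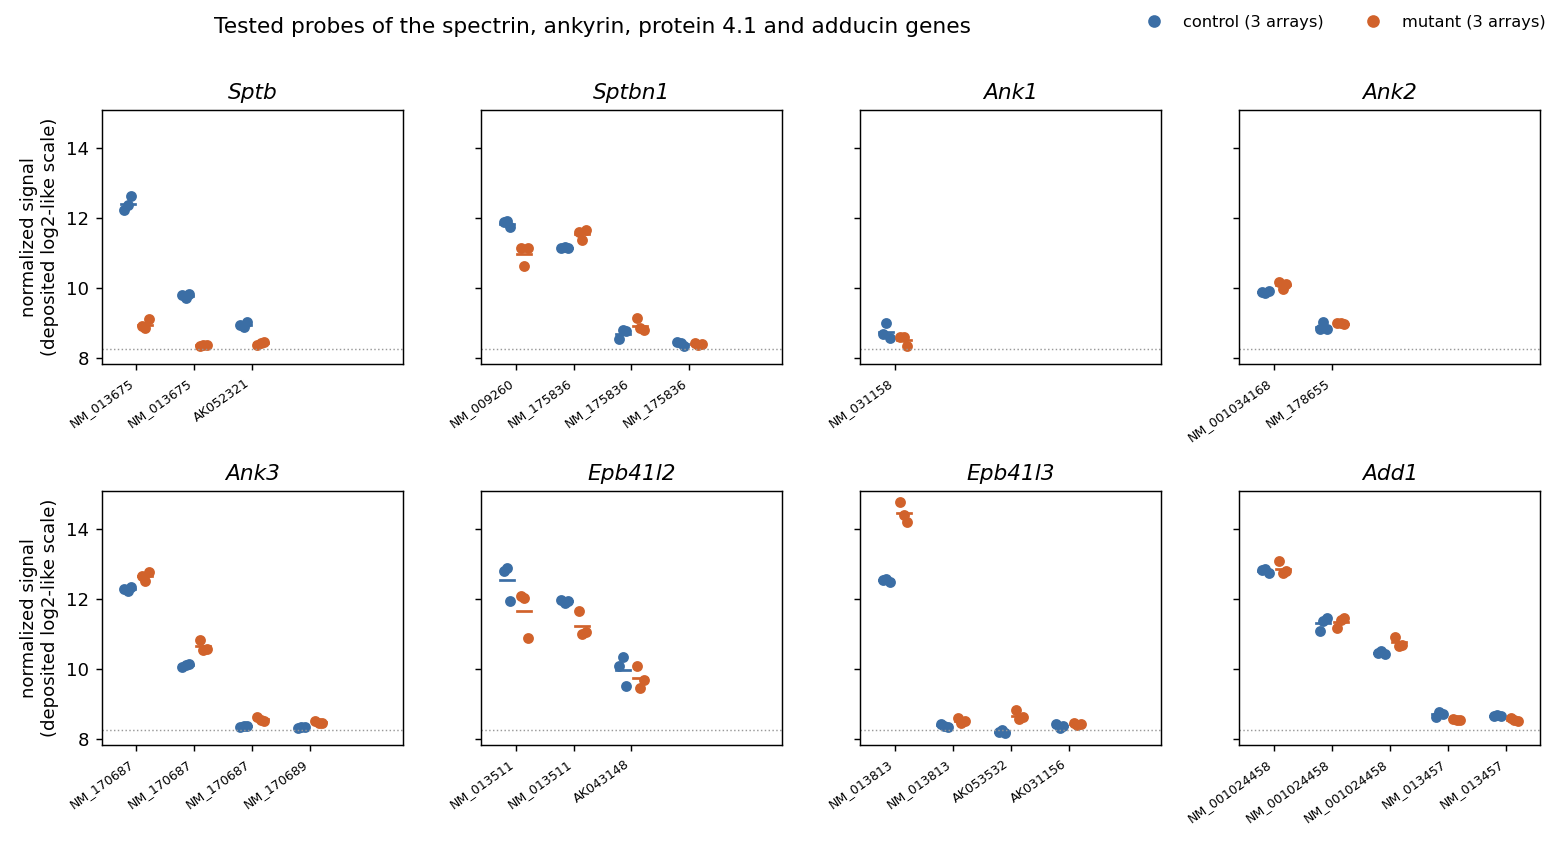
Normalized signal (vertical axis, deposited log2-like scale) of the 26 tested member probes, 1 panel per gene, with the annotated transcript of each probe on the horizontal axis. Points are arrays (3 control, 3 mutant), short bars are group means and the dotted line is the array median of 8.24. The first Sptb probe drops from near 12.4 to near 9.0, the first Epb41l3 probe rises from near 12.5 to near 14.5, and several probes of the same genes lie near the dotted line in both groups.

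The erythroid beta spectrin gene Sptb had the largest fall of the members. Its brightest probe, annotated to NM_013675, read 12.24, 12.38 and 12.62 in controls and 8.91, 8.85 and 9.11 in mutants. The groups lay 3.13 apart at their nearest arrays, and the difference was -3.46 (SE 0.12). The next probe of the same transcript read 9.79, 9.71 and 9.82 in controls and 8.34, 8.38 and 8.38 in mutants, a difference of -1.41 (SE 0.052). A probe annotated to the cDNA AK052321 fell by 0.52 (SE 0.055). All 3 tested probes thus fell. The mutant values of the second and of the AK052321 probe were close to the array median of 8.24, so the sizes of these falls are limited by the low end of the scale, while those of the brightest probe lay above it. The other 2 Sptb probes were too dim to be tested. These 2 probes lay between 8.13 and 8.30 in controls and between 8.04 and 8.11 in mutants, again with every mutant array below every control array. When all probes were tested, 1 of them was called lower (limma adjusted p = 0.00923) and the other was not called (0.155).

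Sptb and Ank1 are also genes of muscle and red cells, and the markers of both were set beside them. In bulk nerve, fewer cells of a type and less RNA per cell cannot be told apart. The mean over 13 skeletal muscle markers was 11.65, 12.78 and 11.58 in controls and 11.35, 11.24 and 9.65 in mutants. Of these markers 2 were called lower, Myh1 and Mb, and 0 higher, while 7 had an unadjusted p under 0.05. Over all genes 17.6% were called lower and 22% higher. The share of all genes at an unadjusted p under 0.05 is not given here, for this or later lists, but is at least the 39.6% called. With the replicate number as a block 8 of the muscle markers were called lower, and without mutant replicate 1 there were 6. Without mutant replicate 2 or 3 or control replicate 2 or 3 the Mb call was lost, which left 1. The brightest were Myl1 (14.81 in controls, 13.58 in mutants), Acta1 (14.38 and 13.31) and Pvalb (14.03 and 12.39), none of them called. The part of muscle in the Sptb values was not tested. None of 6 erythroid markers was called by limma, 0 had an unadjusted p under 0.05, and their mean ran from 11.55 to 11.81 in controls and from 11.31 to 11.83 in mutants. Without mutant replicate 3, and also with array weights and no array left out, 2 of them, Hbb-bt and Hba-a1, were called lower. The brightest, Hbb-bs, Hbb-bt and Hba-a1, read 14.52, 14.37 and 14.13 in controls and 14.23, 13.94 and 13.60 in mutants.

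**Figure D2:**
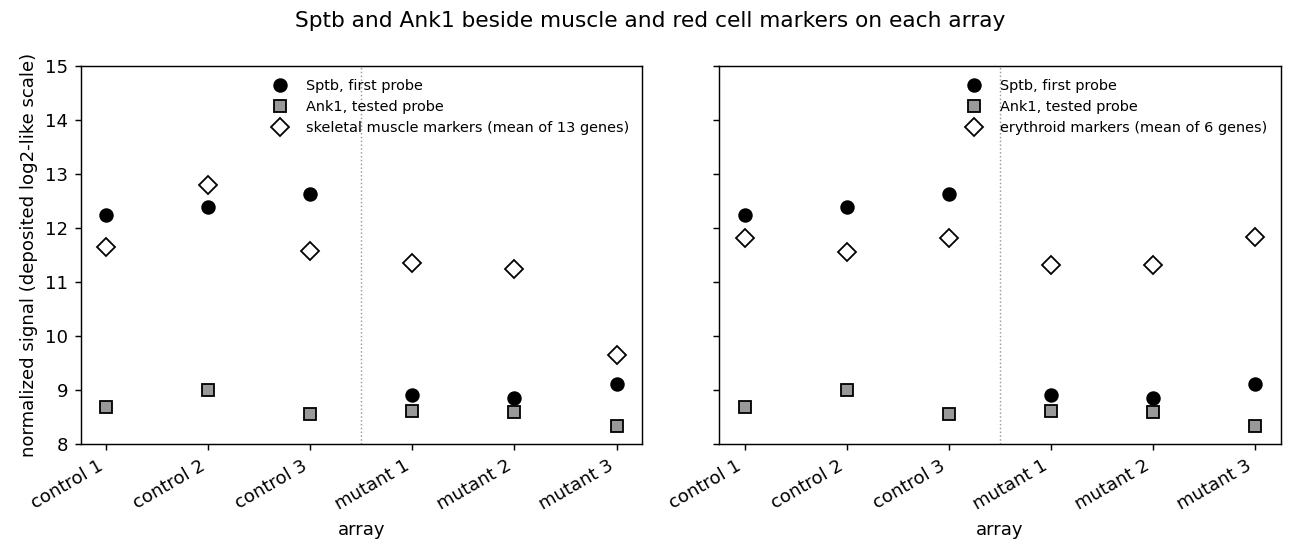
Normalized signal (deposited log2-like scale) on each of the 6 arrays, controls left of the dotted line, for the first Sptb probe (black circles), the tested Ank1 probe (grey squares) and the mean of the tested skeletal muscle markers (left, open diamonds) or erythroid markers (right, open diamonds). Sptb is between 12.24 and 12.62 in controls and between 8.85 and 9.11 in mutants, and the muscle mean is between 11.58 and 12.78 in controls and between 9.65 and 11.35 in mutants.

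Sptbn1, the beta chain of most tissues other than red cells, was read differently by the brightest probes of 2 of its transcripts. The probe annotated to NM_009260 read 11.89, 11.91 and 11.74 in controls and 11.14, 10.63 and 11.13 in mutants, and fell by 0.88 (SE 0.14). The probe annotated to NM_175836 read 11.15, 11.19 and 11.14 in controls and 11.59, 11.38 and 11.66 in mutants, and rose by 0.38 (SE 0.081). Within each array the first minus the second was 0.74, 0.72 and 0.61 in controls and -0.45, -0.74 and -0.52 in mutants, so the sign differed between the groups in every array. This shows unequal change of the probes and not how much of each transcript was present. Another 2 tested probes annotated to NM_175836 were dim, at 8.70 and 8.40 in controls, and were not called, with differences of 0.23 (95% interval -0.04 to 0.50) and 0.0014 (-0.13 to 0.13). The other probes of NM_009260, too dim to be tested, differed by 0.0045 and -0.0064, and a further dim probe of NM_175836 by 0.027. As the mean of its 4 tested probes Sptbn1 differed by -0.07 (SE 0.077) and was not called.

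Of the ankyrin genes, Ank3 rose and the other two were not called. The brightest Ank3 probe read 12.27, 12.22 and 12.35 in controls and 12.66, 12.52 and 12.77 in mutants, a rise of 0.37 (SE 0.078). The next read 10.05, 10.12 and 10.15 in controls and 10.83, 10.54 and 10.58 in mutants, a rise of 0.54 (SE 0.087). A dim probe of the same transcript NM_170687 rose by 0.20 (limma adjusted p = 0.025), which was no longer called in the paired fit with the replicate block (0.0581), without mutant replicate 2 (0.057) and without control replicate 1 (0.0875), 2 (0.0707) or 3 (0.0692). The probe of transcript NM_170689 was 0.15 higher in mutants and not called (0.0528), but was called when all probes were tested (limma adjusted p = 0.0164). All its controls lay below the lowest tested mean of 8.34, so it passed the filter only through its mutants. In each of the 3 tested probes of NM_170687 every mutant array lay above every control array. The groups did not overlap in 52.1% of all tested probes. Nerve holds axons but not their cell bodies, and of 13 neuron and axon markers on the array 4 were tested, with means between 8.74 and 8.90 in controls and between 8.75 and 8.76 in mutants. Of these, Uchl1 fell (9.41 to 9.16), where 17.6% of all genes were called lower. The Uchl1 call was lost when all probes were tested (limma adjusted p = 0.0843) and when only the 12000 brightest were (0.0549). It was also lost without mutant replicate 1 or 2 or any single control array.

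Ank2 had 2 tested probes. The first read 9.90, 9.87 and 9.93 in controls and 10.16, 9.97 and 10.12 in mutants. Its groups did not overlap, but the difference of 0.19 (95% interval 0.03 to 0.34) was not called (limma adjusted p = 0.0672), except without mutant replicate 2 (0.029). The second was 0.09 higher in mutants (interval -0.09 to 0.26). Ank1 had 1 tested probe, which read 8.69, 9.01 and 8.56 in controls and 8.61, 8.59 and 8.34 in mutants, a difference of -0.24 (interval -0.55 to 0.08). Control replicate 2 was the highest and mutant replicate 3 the lowest both for Ank1 and for the muscle mean, and the part of muscle in the Ank1 values was not tested.

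Of the Epb41 family genes Epb41l3 rose, and Epb41l2 was not called by its brightest probe. Epb41l3 rose most of all members: its brightest probe read 12.54, 12.56 and 12.47 in controls and 14.76, 14.40 and 14.21 in mutants, a rise of 1.93 (SE 0.135). Without mutant replicate 1, its highest array, the rise was 1.78. A probe annotated to the cDNA AK053532 read 8.19, 8.25 and 8.16 in controls and 8.80, 8.56 and 8.60 in mutants and rose by 0.46 (SE 0.077). All its controls lay below the lowest tested mean of 8.34, so it passed the filter only through its mutants and its call adds no separate support. The other 2 tested probes stayed between 8.31 and 8.58 on all arrays and were not called. Epb41l3 is also made by macrophages. Of 6 macrophage markers 0 were called by limma (1 at an unadjusted p under 0.05), where 39.6% of all genes were called. The macrophage means were 10.18 to 10.34 in controls and 10.18 to 10.43 in mutants. With the replicate block 1 of these markers, Adgre1, was called higher, as was Aif1 without mutant replicate 1.

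Epb41l2, the Epb41 protein of myelinating Schwann cells, had mutant means below control means in all 3 tested probes. The probe with the steadiest controls read 11.97, 11.87 and 11.94 there and 11.65, 10.98 and 11.05 in mutants, and fell by 0.70 (SE 0.17, limma adjusted p = 0.0207). That call was lost when all probes were tested (0.0616) and without any single array other than mutant replicate 1 (0.0551 to 0.0736), and without mutant replicate 1 the fall was 0.91. The brightest probe read 12.80, 12.87 and 11.94 in controls and 12.08, 12.03 and 10.87 in mutants. On this probe the arrays numbered 3 were lower than the nearest other array of their group by 0.86 in controls and 1.16 in mutants. Its difference of -0.88 (SE 0.39) was not called (adjusted p = 0.126), and with the replicate number as a block it was called (SE 0.085, adjusted p = 0.00226). The remaining probe, of the cDNA AK043148, read 10.08, 10.33 and 9.51 in controls and 10.07, 9.45 and 9.66 in mutants, a difference of -0.25 (95% interval -0.82 to 0.33). The spread within groups, which takes no part in the difference between them, was high for this gene: the pooled SD of the brightest probe was 0.61, above that of 99.7% of the tested probes, and those of the other two were above 97.5% and 93.6%.

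**Figure D3:**
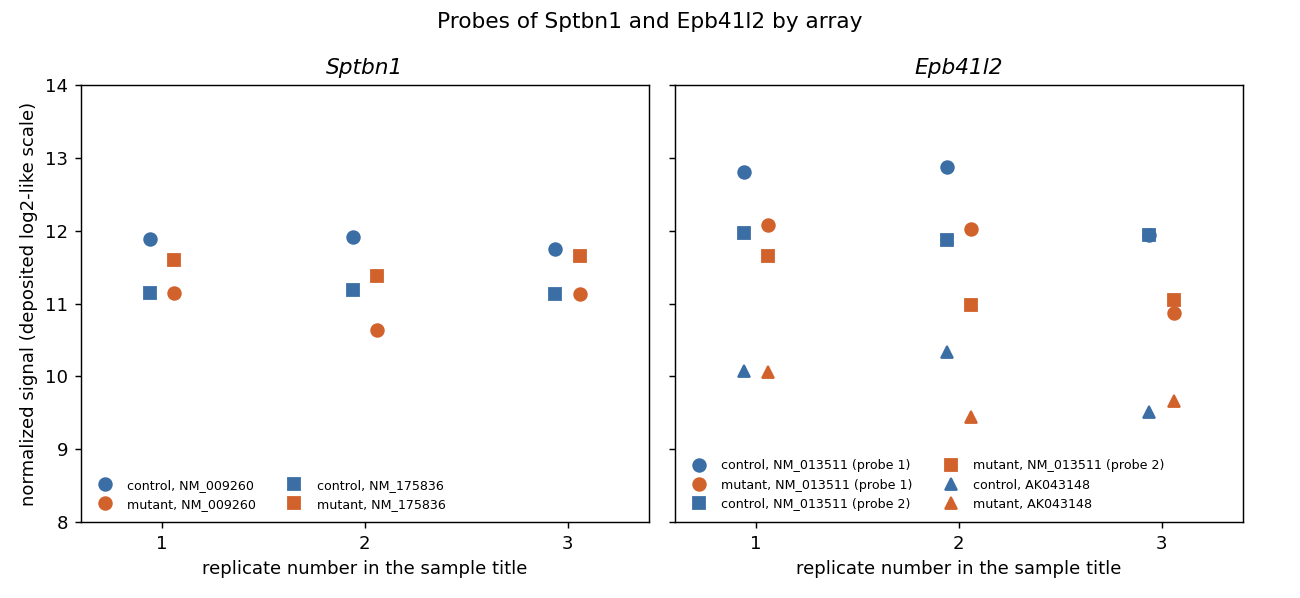
Normalized signal (deposited log2-like scale) of the 2 brighter Sptbn1 probes (left) and the 3 tested Epb41l2 probes (right), by the replicate number in the sample title, control in blue and mutant in orange, with 1 marker shape per probe. The Sptbn1 probe of NM_009260 (circles) is lower and that of NM_175836 (squares) higher in the mutant arrays, and the first Epb41l2 probe (circles) is low on the arrays numbered 3 of both groups.

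Add1, which encodes alpha adducin, had 5 tested probes and no common direction. The brightest read 12.81, 12.86 and 12.73 in controls and 13.08, 12.73 and 12.78 in mutants, a difference of 0.06 (95% interval -0.18 to 0.30), and the next differed by 0.04 (-0.24 to 0.31). Another read 10.45, 10.51 and 10.43 in controls and 10.91, 10.66 and 10.68 in mutants and rose by 0.29 (limma adjusted p = 0.0296). This call was lost when all probes were tested (0.0551) and without control replicate 1 (0.0951), 2 (0.0656) or 3 (0.0934). Both probes annotated to transcript NM_013457 were lower in mutants, by -0.15 and -0.11, with no overlap of the groups, and were not called. When all probes were tested, both were called lower (limma adjusted p = 0.0444 and 0.0474). As the mean of all 5 probes Add1 differed by 0.03 (SE 0.053).

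**Figure D4:**
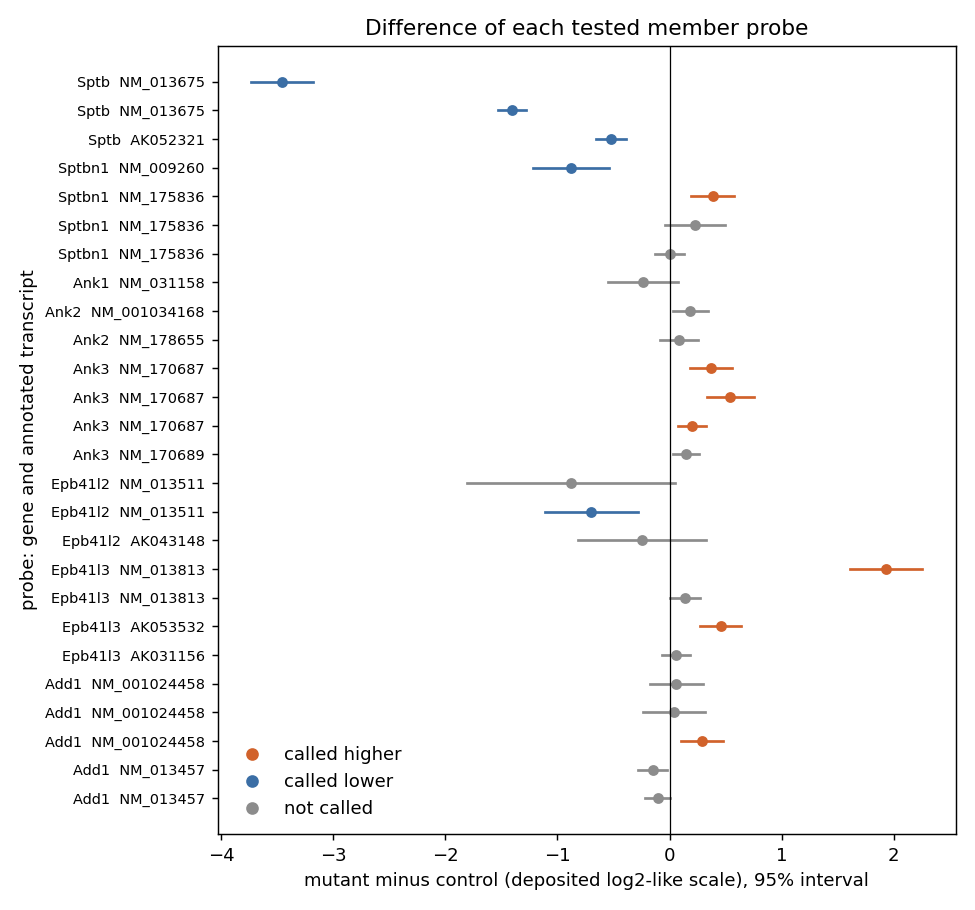
Difference of each tested member probe, mutant minus control on the deposited log2-like scale, with its 95% interval from limma, labelled by gene and annotated transcript. Called rises are orange, called falls blue and other probes grey. The Sptb probes lie left of 0 at -3.46, -1.41 and -0.52, the probes of Sptbn1 lie on both sides, and the first Epb41l3 probe is at 1.93.

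The other genes of the submembrane skeleton were counted by the brightest tested probe of each gene. Of 21 on the list, 16 had a probe and 13 were tested, of which 9 rose, 0 fell and 4 were not called, with a median of 0.57. Over all genes 22% were called higher and 17.6% lower. The count of rises ran from 6, without control replicate 3 (Add3, Tpm1 and Actb lost), to 11, without mutant replicate 1 (Epb41l5 and Tmod3 added). Epb41l4a, an Epb41 relative, rose by 1.55, from 10.25, 10.13 and 10.29 to 11.88, 11.79 and 11.64. The tropomyosin genes Tpm3 and Tpm4, which coat actin filaments, rose by 1.09 and 0.97. Tmod2, which caps the slow end of actin filaments, rose by 0.79. Tmod4, the tropomodulin of skeletal muscle, was at 9.97 in controls and 9.28 in mutants and not called.

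Of the membrane proteins held by ankyrins, 9 of 14 genes were tested, of which 2 rose and 2 fell, with a median of 0.02. The shares over all genes were 22% higher and 17.6% lower. The hyaluronan receptor gene Cd44 rose by 1.07 and the adhesion molecule gene Chl1 by 0.45. The Chl1 controls (8.31, 8.25 and 8.28) all lay below the lowest tested mean of 8.34, so this probe passed the filter only through its mutants. Nfasc, whose proteins sit at nodes and paranodes, fell by 0.67, and the cadherin gene Cdh1 by 0.60. Without mutant replicate 1 the count of falls was 3, with Dag1 added.

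Partners of the Epb41 proteins were called in both directions. Of 12 genes 6 were tested, of which 3 fell and 2 rose, with a median of -0.59, where 17.6% of all genes were called lower and 22% higher. The scaffold gene Mpp6 read 10.86, 10.84 and 10.83 in controls and 9.28, 9.16 and 9.14 in mutants, and fell by 1.65 (SE 0.055). Gypc, the glycophorin anchored by Epb41 and Mpp1 in red cells, read 11.35, 11.47 and 11.43 in controls and 10.24, 10.17 and 10.20 in mutants, and fell by 1.21 (SE 0.054). Cadm3, an adhesion molecule, fell by 0.98 to values of 8.31 to 8.33. These mutant values all lay below the lowest tested mean of 8.34, so this probe passed the filter only through its controls. Cadm1 and Mpp1 rose by 0.40 and 0.32. Both calls were lost when all probes were tested and without mutant replicate 2 or control replicate 1, and that of Mpp1 without control replicate 3. No probe is named Cadm4, and Cntnap1 and Cntnap2 were too dim to be tested.

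**Figure D5:**
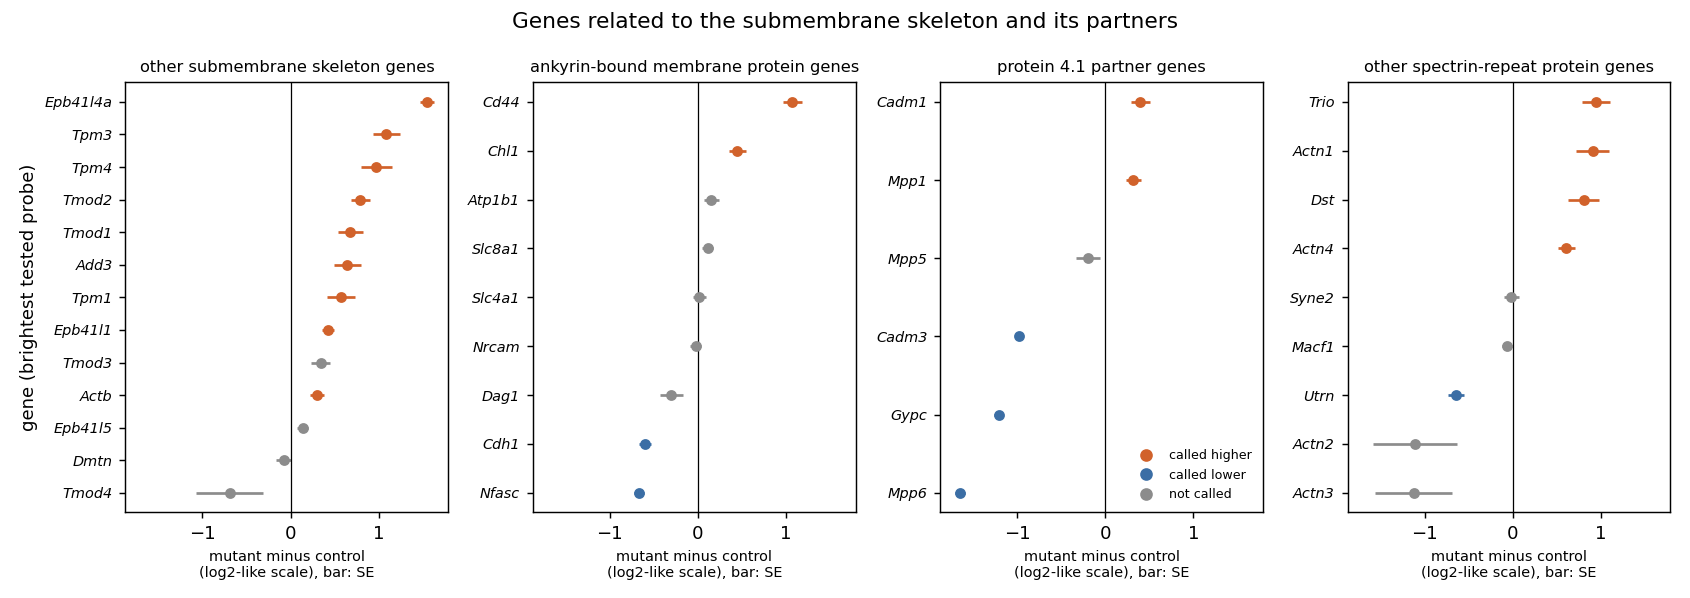
Mutant minus control difference (deposited log2-like scale, bar: SE) of the brightest tested probe of each gene in 4 lists, with called rises in orange, called falls in blue and other genes in grey. In the list of other submembrane skeleton genes 9 of 13 lie right of 0 as called rises, while Mpp6, Gypc and Cadm3 lie between -1.65 and -0.98 among the partners of the Epb41 proteins.

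Of the other proteins with spectrin repeats, 9 of 12 genes were tested, of which 4 rose and 1 fell, with a median of -0.01. Trio rose by 0.95, the alpha actinin genes Actn1 and Actn4 by 0.91 and 0.61, and Dst, a giant linker of the cytoskeleton, by 0.81. Without control replicate 1 or 2 the Dst call was lost (limma adjusted p = 0.0509 and 0.0532). Utrn, the dystrophin relative utrophin, fell by 0.65. The muscle genes Actn2 and Actn3 were at -1.11 and -1.13 and not called. Both were called lower without mutant replicate 1, which gives 3 falls, and Actn3 with the replicate block. None of the 3 tested FERM protein genes related to the Epb41 family was called by limma, also at an unadjusted p under 0.05 (0 of 3), the brightest being Fermt2 (0.04) and Msn (0.02). Of 4 tested genes of the calpain system and caspases, proteases that cut spectrin, Capns1, the small calpain subunit, rose by 0.36. Without mutant replicate 1 Capn2 was called lower as well. These lists were read against the same background of 39.6% of genes called, 22% higher and 17.6% lower.

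The genes most like 2 members over the 6 arrays were found by the root mean square (RMS) difference of their brightest probes after subtracting each probe's control mean, among 10009 named genes. Such a likeness mostly reflects an equal difference between the groups. Nearest to the first Sptb probe were Septin3 (RMS 0.085), Gldn (0.12), Mlip (0.14), Kcnk1 (0.17) and Ddn (0.23). Septin3 encodes a filament-forming GTP-binding protein and Gldn a protein that clusters channels at nodes. Nearest to the first Epb41l3 probe were Ednrb (0.060), Pls1 (0.064), Nusap1 (0.089), Snx16 (0.091) and Ncaph (0.097). Ednrb is an endothelin receptor, Pls1 bundles actin, and Nusap1 and Ncaph act in mitosis.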

How the data were processed

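The deposited log2-like values were used as given. Per the labels (the series' design text), the authors normalized by RMA with limma, and lumi 1.8.3 appears in the submitters' processing notes. The exact transform is not settled: if it is lumi's variance-stabilising one, differences of dim probes understate the fold change. The design text speaks of cultured cells, the title and sample labels of sciatic nerve, which was followed. The 18420 probes with the highest mean were kept, the number that text kept by detection calls not used here. limma 3.58.1 in R 4.3.3 was fitted to all of them (2-sided, 4 residual and 2.63 prior degrees of freedom), with Benjamini-Hochberg adjustment, and tested on simulated data. With 3 arrays a group, their number limits the precision.

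Of 45281 probes, 34885 had 1 symbol, 18 several and 10378 none in the platform annotation. Every member probe is accounted for. Up to 4 called genes of each other list, by size, or else the 2 brightest, are named, and up to 3 markers by brightness. Others were named after their values were seen. Members and lists were chosen with earlier results of these data known.

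Deviations from the group means correlated at 0.165, 0.155 and 0.224 between arrays of numbers 1, 2 and 3 and at -0.157 to 0.0283 otherwise. Deviations cancel within each group, so these correlations are not independent of one another. A pairing of the samples by title number was inferred from these values only. Differences, SEs and calls are from the fit without pairing, except where the replicate block is named. Promoter windows came from RefSeq (GRCm38.p6). Their letters agreed in all 1621 overlaps of opposite strands. Filters, scalings, the replicate block, a variance trend, array weights and leaving out each array were tried as alternatives.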

Additional observations from a re-analysis of the deposited data

How the results depend on the processing

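Over the 26 tested member probes, 328 differences were computed under the alternatives (the stricter filter of 12000 probes leaves some out). In 301 the direction and the side of the threshold were as reported or neither value was called, 15 lost their call, 12 gained one, and 0 called values reversed. The paired fit with the replicate block called 6287 of all probes, with 6 member probes up and 6 down. It changed no member call other than those of Ank3 and Epb41l2 given above. With array weights 8 member probes, 11 genes of the other family lists and 4483 of all probes were called lower, against 5, 6 and 2932. Asking also for a difference of at least 1 left 828 probes (378 higher, 450 lower), 1 member probe higher and 2 lower, 1 member gene in each direction, and 3 list genes higher and 2 lower. With the mean of a gene's tested probes 1 member gene, Sptb, was called lower, and Sptbn1 was not. Leaving out 1 array at a time gave 5 to 7 member probes higher and 4 to 5 lower, 2 to 3 member genes higher and 2 lower, 13 to 20 list genes higher and 6 to 10 lower (10 without mutant replicate 1), and 4598 to 7502 of all probes called. Centring moved the median of all tested probes by under 0.1. Probes near 8.24 bound the size of a fall.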

Other observations

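The pattern of the brightest Epb41l2 probe over the arrays was looked for in all tested probes after its values were seen. Of 18420 probes, 2 had the arrays numbered 3 lower by at least 0.8 than both other arrays in each group, this probe included. The arrays numbered 3 were the lowest of both groups in 13.6% of the tested probes.

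Among the markers of other cell types, 2 of 7 fibroblast genes rose (Lum by 0.99 and Col1a1 by 0.61) and 0 fell. The brightest, Dcn, was at 15.52 in controls and 15.66 in mutants. As the background for these lists, 22% of all genes were called higher and 17.6% lower. Of 9 endothelial genes 3 fell, Cldn5 by 0.88, Egfl7 by 0.78 and Vwf by 0.55, and 0 rose, while with the replicate block Pecam1 was called higher by 0.25 (limma adjusted p = 0.0313). The Vwf call was lost without mutant replicate 2 or 3 or control replicate 1. Without mutant replicate 1, Emcn (endothelial), Dpt (fibroblast) and Lep (adipocyte) were called lower as well. None of 4 adipocyte genes was called by limma (1 had an unadjusted p under 0.05), while Adipoq and Cidec were called lower with the replicate block, Adipoq also without control replicate 3. Their part in the values of the members was not tested.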
